A study of Mus musculus with 20 samples.

Results

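The genes described here are 7 transcripts that mark mast cells: the tryptase genes Tpsb2 and Tpsab1, the chymase genes Cma1 and Mcpt4, the carboxypeptidase gene Cpa3, and the receptor genes Kit and Ms4a2. They were taken by symbol, and all 7 were found among the 55367 genes listed in each of 20 polyadenylated RNA libraries of the neonatal mouse heart. The libraries came from C57BL/6J pups kept from birth to postnatal day 4 either in 100% oxygen, called hyperoxia, or at 21% oxygen, called room air. The groups were the left atrium in hyperoxia, the left atrium in room air, the left ventricle in hyperoxia and the left ventricle in room air, with 5 libraries from 5 individual mice in each. All pups were of the same strain, with no allele or agent named beyond oxygen, and dams were exchanged between the oxygen levels during nursing.

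Mast cells are resident cells of connective tissue that reach the heart before birth as progenitors and mature there. Their survival depends on the receptor tyrosine kinase Kit and on its ligand, stem cell factor, which is made by neighbouring cells. Mature mast cells store tryptases, chymases and carboxypeptidase A in granules on a heparin scaffold built on the proteoglycan serglycin, and release them when the IgE receptor is cross-linked. Ms4a2 encodes the beta chain of that receptor. Mouse Tpsb2 encodes the main tryptase of connective tissue mast cells, and Mcpt4 a chymase regarded as the functional counterpart of human chymase. Mouse Cma1 encodes a further chymase, which is stored in the granule together with carboxypeptidase A. Kit is also made by cells that are not mast cells, among them melanocytes and endothelial cells.

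Values are CPM, read counts scaled to a common library size with TMM factors. Fold changes are log2 differences from the edgeR quasi-likelihood test with their standard error (SE), and the adjusted p is that of the same test after the Benjamini-Hochberg method was applied to all 16598 genes that passed the expression filter. A gene was called at an adjusted p under 0.05. Total counts ranged from 26510081 to 38244117 per library. Of the 7 genes, 6 passed the filter and Ms4a2 did not. Since these are bulk libraries, fewer mast cells and less RNA per mast cell cannot be told apart.

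The libraries differed in more than chamber and oxygen. Libraries in which Y-linked reads outnumbered those of Xist, called Y-majority libraries here, were 1 of 5 hyperoxic atria, 5 of 5 room-air atria, 2 of 5 hyperoxic ventricles and 5 of 5 room-air ventricles, so that sex and oxygen cannot be fully told apart. With 1 hyperoxic atrium among them, Y-majority libraries give no test of their own of a hyperoxic atrium. For the length slope of a library, the log2 CPM of each gene was taken as its deviation from the mean of the chamber. The slope was the trend of these deviations with log2 exon length, negative in libraries tilted towards short transcripts. Being centred within each chamber, it is no absolute trend to compare between the chambers, also where it serves as a covariate. It was -0.289 and -0.283 in hyperoxic atria 2 and 4 and -0.219 in room-air ventricle 4, and at most 0.133 elsewhere. In the ventricles it was 0.036 to 0.096 in hyperoxia and -0.219 to 0.025 in room air, without overlap. Length slope and oxygen can thus not be fully told apart in the ventricles, also where the slope serves as a covariate. Myl7, the atrial myosin light chain, had 4325 to 11369.5 CPM in hyperoxic atria and 6298 to 8447 CPM in room-air atria, against 2.66 to 128 CPM in hyperoxic ventricles and 19.5 to 530 CPM in room-air ventricles. Atrial transcript was thus read in ventricular libraries, with a higher mean in those from room air (38.9 ± 52.9 CPM in hyperoxic and 231 ± 203 CPM in room-air ventricles, SD, n = 5 each). Myl2, the ventricular myosin light chain, had 5.59 to 22.0 CPM in hyperoxic atria and 7.42 to 328 CPM in room-air atria, highest in number 1. It had 14326 to 17491 CPM in hyperoxic and 15725 to 28928 CPM in room-air ventricles. The part of ventricular tissue in the atrial protease values was not tested. Hyperoxic ventricle 4 and room-air ventricles 1 and 4 had been found to lie apart from their groups in earlier work on these data.

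The 5 protease genes lie in 3 loci of GRCm38. Tpsb2 (chromosome 17, 25366305 to 25369098, plus strand) and Tpsab1 (chromosome 17, 25343245 to 25345562, minus strand) are 20742 bases apart. Cma1 (chromosome 14, 55941451 to 55944675, minus strand) and Mcpt4 (chromosome 14, 56059629 to 56062313, minus strand) are 114953 bases apart. Cpa3 lies on chromosome 3 (20215620 to 20242181, minus strand), Kit on chromosome 5 (75574916 to 75656722, plus strand) and Ms4a2 on chromosome 19 (11615523 to 11623719, minus strand). No exon of the 7 genes overlapped an exon of another gene. Of all windows of 50 bases in the transcripts, 5.38% for Cma1, 5.48% for Mcpt4 and 2.10% for Ms4a2 were also found in another gene. The genes sharing the most windows with these 3 were Gm48934, Cma2 and Ms4a4b, in that order. No window of the other 4 genes was found in another gene.

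RefSeq promoter sequences of GRCm38.p6, from 250 bases before to 50 bases after the start of transcription, were matched for 5 of the 7 genes (Cpa3, Cma1, Mcpt4, Kit and Ms4a2). Those of Cma1, Mcpt4 and Cpa3 are shown because these genes varied together over the libraries, and that of Kit because it did not vary with them. Capitals mark the letters AGATAA or those of AGATAG, and likewise TGATAA or those of TGATAG, on either strand, the motif read by GATA factors, of which Gata2 is needed by mast cells.
Cma1, chr14:55944626-55944925, minus strand: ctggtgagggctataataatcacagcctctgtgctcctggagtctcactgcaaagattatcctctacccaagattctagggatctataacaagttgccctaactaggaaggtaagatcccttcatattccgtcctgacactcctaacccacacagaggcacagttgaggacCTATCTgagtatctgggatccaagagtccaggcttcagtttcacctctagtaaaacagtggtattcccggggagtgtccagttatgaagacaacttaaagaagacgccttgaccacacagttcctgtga
Mcpt4, chr14:56062261-56062560, minus strand: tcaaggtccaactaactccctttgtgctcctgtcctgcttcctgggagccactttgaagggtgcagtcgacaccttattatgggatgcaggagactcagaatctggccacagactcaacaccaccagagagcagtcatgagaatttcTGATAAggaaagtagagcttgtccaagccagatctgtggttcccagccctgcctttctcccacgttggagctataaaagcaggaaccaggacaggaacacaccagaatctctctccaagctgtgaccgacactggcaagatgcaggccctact
Cpa3, chr3:20242132-20242431, minus strand: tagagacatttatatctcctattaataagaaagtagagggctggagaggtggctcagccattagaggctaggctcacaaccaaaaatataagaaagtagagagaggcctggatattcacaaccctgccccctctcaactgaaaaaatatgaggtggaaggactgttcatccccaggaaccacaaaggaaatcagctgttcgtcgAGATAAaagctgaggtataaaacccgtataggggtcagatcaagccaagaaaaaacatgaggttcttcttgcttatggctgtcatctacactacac
Kit, chr5:75574737-75575036, plus strand: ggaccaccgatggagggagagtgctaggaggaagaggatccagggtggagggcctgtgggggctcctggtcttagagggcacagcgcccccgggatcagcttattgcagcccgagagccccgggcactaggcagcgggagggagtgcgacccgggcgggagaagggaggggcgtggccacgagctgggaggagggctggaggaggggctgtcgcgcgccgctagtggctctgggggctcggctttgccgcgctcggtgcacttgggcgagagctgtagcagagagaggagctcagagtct

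The GATA letters were found once each in the promoters of Cma1 (79 bases before the start), Mcpt4 (103 bases before) and Cpa3 (46 bases before). The Ms4a2 promoter held them at 3 places, 224, 37 and 11 bases before the start, and neither of the Kit promoters held them. Of all 32851 promoters of this length, 29.8% held at least 1 such match, so the letters are common. The letters CATGTG or CACGTG on either strand, the motif of the mast cell factor Mitf, were in 20.4% of all promoters and in none of those matched here. These matches describe the sequence windows and show no binding.

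Levels between genes were compared per kilobase of annotated exon. In room-air ventricles Cma1 was the highest of the 7 genes at 15.1 ± 2.52 CPM per kb, above Tpsb2 at 10.1 ± 2.11, Mcpt4 at 8.22 ± 1.29, Cpa3 at 5.84 ± 1.22 and Kit at 3.64 ± 0.499 CPM per kb (SD, n = 5). Tpsab1 and Ms4a2 were far lower in those ventricles, at 0.280 ± 0.0746 and 0.0580 ± 0.0317 CPM per kb. The C57BL/6 strain is known to make no functional Tpsab1 tryptase, because of a splice site change in the gene. In room-air atria the order was another: Kit stood at 7.83 ± 1.49 CPM per kb and Cma1, the highest protease gene, at 1.37 ± 1.02 CPM per kb. The mast cell proteases were thus the larger signal in the ventricle and Kit the larger one in the atrium.

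The first comparison asked how the chambers differed at each oxygen level. All 5 protease genes were lower in the atrium than in the ventricle, in room air and in hyperoxia. In room air the mean of the ventricles was 12.2 times that of the atria for Tpsb2, 11.0 times for Cma1, 11.3 times for Mcpt4, 10.03 times for Cpa3 and 5.17 times for Tpsab1. In hyperoxia it was 4.55, 4.93, 3.94, 8.49 and 8.34 times. Kit went the other way in room air, where its atrial mean was 2.15 times the ventricular one.

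Tpsb2 had 1.09, 2.41, 1.48, 4.22 and 0.912 CPM in hyperoxic atria 1 to 5 and 0.964, 1.62, 2.84, 0.646 and 0.549 CPM in room-air atria 1 to 5. It had 10.7, 10.9, 8.96, 5.45 and 10.02 CPM in hyperoxic ventricles 1, 2, 4, 5 and 6 and 20.2, 11.2, 17.8, 16.1 and 15.2 CPM in room-air ventricles 1 to 5. Every ventricle lay above every atrium, and in the ventricles the 5 room-air values lay above the 5 hyperoxic ones. The log2 difference between atrium and ventricle was -2.20 in hyperoxia (SE 0.38, adjusted p = 5.06e-05) and -3.59 in room air (SE 0.40, adjusted p = 1.21e-07).

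Tpsab1, the neighbouring tryptase gene, was near the limit of detection. Its read counts were 1, 1, 7, 3 and 0 in hyperoxic atria 1 to 5 and 5, 7, 6, 4 and 0 in room-air atria 1 to 5. Hyperoxic ventricles 1, 2, 4, 5 and 6 held 16, 11, 30, 6 and 9 counts, and room-air ventricles 1 to 5 held 14, 18, 20, 8 and 19. In CPM the atria and the ventricles did not overlap at either oxygen level, with fitted log2 differences of -2.94 in hyperoxia and -2.32 in room air. Tpsab1 passed the expression filter through its ventricular values, so no adjusted p between the chambers is given.

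Cma1 had 0.795, 2.89, 1.24, 5.14 and 0.627 CPM in hyperoxic atria 1 to 5 and 0.737, 2.17, 3.10, 1.01 and 0.433 CPM in room-air atria 1 to 5. Its values were 10.2, 11.5, 13.4, 5.74 and 12.03 CPM in hyperoxic ventricles 1, 2, 4, 5 and 6 and 18.2, 12.4, 19.2, 17.3 and 15.0 CPM in room-air ventricles 1 to 5. Hyperoxic atrium 4 came close to hyperoxic ventricle 5, and no atrium reached a ventricle. The log2 difference between the chambers was -2.32 in hyperoxia (SE 0.46, adjusted p = 0.000238) and -3.45 in room air (SE 0.48, adjusted p = 2.94e-06).

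Mcpt4, the other chymase, had 0.571, 0.765, 1.09, 1.57 and 0.656 CPM in hyperoxic atria 1 to 5 and 0.538, 0.542, 2.19, 0.362 and 0.404 CPM in room-air atria 1 to 5. In hyperoxic ventricles 1, 2, 4, 5 and 6 it had 3.70, 4.84, 3.99, 2.08 and 3.73 CPM, and in room-air ventricles 1 to 5 it had 10.9, 6.91, 9.24, 9.24 and 9.24 CPM. The chambers did not overlap at either oxygen level, and the 5 room-air ventricles lay above the 5 hyperoxic ones. The log2 difference between atrium and ventricle was -1.98 in hyperoxia (SE 0.38, adjusted p = 0.000173) and -3.49 in room air (SE 0.39, adjusted p = 1.36e-07).

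Cpa3, the granule carboxypeptidase, had 0.497, 0.566, 0.899, 2.24 and 0.456 CPM in hyperoxic atria 1 to 5 and 0.765, 0.777, 2.24, 0.517 and 0.116 CPM in room-air atria 1 to 5. It had 6.57, 6.46, 13.4, 5.06 and 8.01 CPM in hyperoxic ventricles 1, 2, 4, 5 and 6 and 9.95, 6.23, 10.4, 7.60 and 10.1 CPM in room-air ventricles 1 to 5. The ventricles of the 2 oxygen levels overlapped widely, the highest of all being hyperoxic ventricle 4. Between atrium and ventricle the log2 difference was -3.10 in hyperoxia (SE 0.47, adjusted p = 1.07e-05) and -3.31 in room air (SE 0.47, adjusted p = 4.37e-06).

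**Figure D1:**
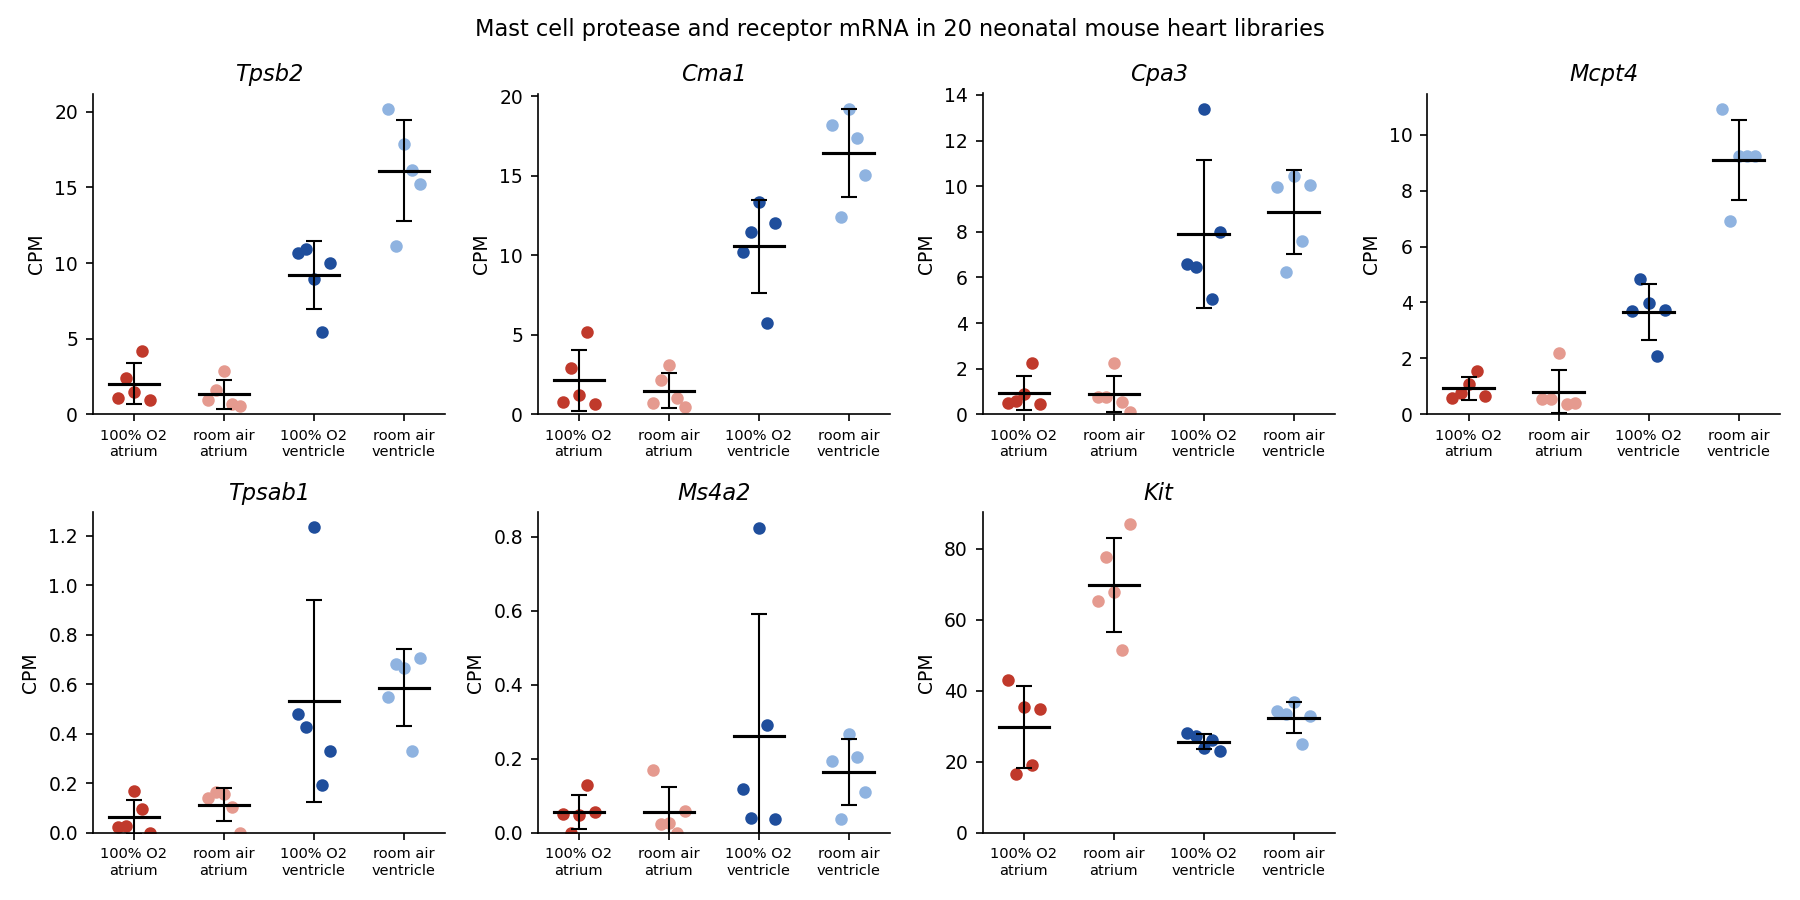
CPM (y axis, linear, a scale of its own in each panel) of the 7 genes in the 4 groups, with 1 point per library, a bar at the mean and whiskers of 1 SD (n = 5 per group). The protease genes are low in both atria and high in both ventricles, while Kit is highest in the room-air atria, at 51.5 to 86.8 CPM.

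Kit had 43.0, 16.5, 35.4, 19.0 and 35.0 CPM in hyperoxic atria 1 to 5 and 65.3, 77.5, 67.8, 51.5 and 86.8 CPM in room-air atria 1 to 5. It had 28.2, 27.1, 24.0, 26.0 and 23.1 CPM in hyperoxic ventricles 1, 2, 4, 5 and 6 and 34.2, 33.5, 36.8, 24.97 and 32.8 CPM in room-air ventricles 1 to 5. The room-air atria stood above every other library, and the other 3 groups overlapped with one another. The log2 difference between atrium and ventricle was 0.21 in hyperoxia (SE 0.20, adjusted p = 0.391) and 1.10 in room air (SE 0.20, adjusted p = 6.98e-05). The hyperoxic value became 0.60 with the length slope as a covariate (adjusted p = 1.18e-05).

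Ms4a2, the receptor chain of the IgE receptor, had 2, 0, 2, 4 and 2 counts in hyperoxic atria 1 to 5 and 6, 1, 1, 0 and 2 counts in room-air atria 1 to 5. Hyperoxic ventricles 1, 2, 4, 5 and 6 had 4, 1, 20, 9 and 1 counts and room-air ventricles 1 to 5 had 5, 1, 8, 5 and 3. The sums of 10, 10, 35 and 22 counts have exact Poisson 95% intervals of 4.80 to 18.4, 4.80 to 18.4, 24.4 to 48.7 and 13.8 to 33.3, which cover counting error only. In CPM the mean of the atria was 0.216 times that of the ventricles in hyperoxia (two-sided exact permutation p = 0.206) and 0.340 times in room air (two-sided exact permutation p = 0.0635). The smallest p that 5 against 5 libraries allow is 0.00794. A chamber difference of Ms4a2 was not detectable at this depth.

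In hyperoxia 5 of the 6 genes tested were called lower in the atrium than in the ventricle and none higher, where 48.8% of all genes were called, 25.2% higher and 23.6% lower. In room air all 6 were called, 5 lower and Kit higher, where 55% of all genes were called, 28.7% higher and 26.3% lower. The CPM of the chambers did not overlap for 5 of the 6 in hyperoxia (32.9% of all genes) and for all 6 in room air (46.5% of all genes). The median log2 difference of all genes was 0.014 in hyperoxia and 0.025 in room air. The calls of Tpsb2, Cpa3, Cma1 and Mcpt4 held at both oxygen levels with each library left out and under each other setting that kept at least 3 libraries a group. The counts above, of calls and of groups without overlap, include Tpsab1, which passed the expression filter through its ventricular values. Its call between the chambers was favoured by the filter and lends no support to them.

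The sum of Tpsb2, Cma1, Mcpt4 and Cpa3 gave a level for each library. It was 2.65 to 13.2 CPM in hyperoxic atria (median 4.71) and 1.502 to 10.4 CPM in room-air atria (median 3.004). In hyperoxic ventricles it was 18.3 to 39.7 CPM (median 33.7) and in room-air ventricles 36.7 to 59.3 CPM (median 50.3). The 10 lowest sums of the 20 were those of the 10 atria. The lowest ventricle was hyperoxic number 5 and the highest atrium hyperoxic number 4.

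The spread between libraries of a group was larger than counting error for these 4 genes. Their coefficients of variation were 43.7% to 89.0% in hyperoxic atria and 71.4% to 96.2% in room-air atria, against 24.2% to 41.1% in hyperoxic ventricles and 15.7% to 20.9% in room-air ventricles. Counting alone would give 11.7% to 17.5%, 13.1% to 18.02%, 5.84% to 9.88% and 4.77% to 6.48% in the same 4 groups. The 4 genes were correlated over the libraries. With the group means removed, Pearson's r of log2 CPM over the 20 libraries was 0.94 for Tpsb2 with Cma1, 0.85 for Tpsb2 with Mcpt4, 0.81 for Tpsb2 with Cpa3, 0.80 for Cma1 with Cpa3, 0.79 for Mcpt4 with Cpa3 and 0.73 for Cma1 with Mcpt4. Hyperoxic ventricle 4 departed from this, with the highest Cpa3 of its group (13.4 CPM) and less Tpsb2 (8.96 CPM) than hyperoxic ventricles 1, 2 and 6. These values are descriptions, since the genes of a library share its depth and scaling.

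**Figure D2:**
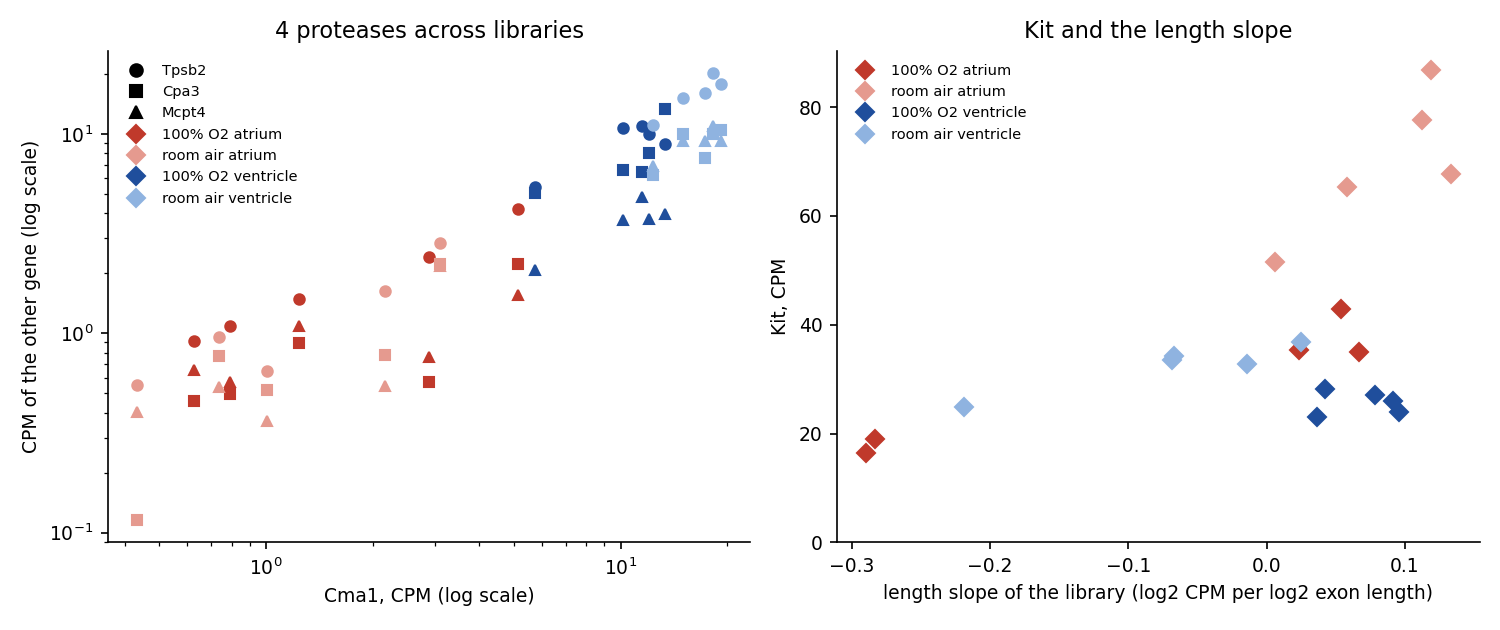
Left, CPM of Tpsb2, Cpa3 and Mcpt4 (y axis, log scale) against CPM of Cma1 (x axis, log scale) in the 20 libraries, coloured by group. Right, Kit CPM (y axis) against the length slope of the library (x axis, log2 CPM per log2 exon length, centred within each chamber). The 3 protease genes follow Cma1 across both chambers, with Mcpt4 of the hyperoxic ventricles (2.08 to 4.84 CPM) below that of the room-air ventricles (6.91 to 10.9 CPM), and Kit is lowest in the 2 hyperoxic atria with the lowest slopes (16.5 and 19.0 CPM).

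Kit did not follow the proteases. Its r with the 4 genes, with group means removed, was -0.18 with Mcpt4, -0.33 with Cpa3, -0.43 with Tpsb2 and -0.59 with Cma1. Its r with the length slope was 0.92 over the same 20 libraries, against -0.54 for Cma1, -0.42 for Tpsb2, -0.18 for Cpa3, -0.11 for Mcpt4 and -0.10 for Tpsab1. Kit has 8911 annotated exon bases, and the 4 proteases between 1090 and 1594. Values of Kit with the length slope as a covariate are given with the results on Kit.

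By the same measure, 13786 genes that passed the filter and had a mean of at least 1 CPM were compared with the mean log2 CPM of the 4 proteases. The 7 members and predicted gene models (Gm and a number, or Rik) were passed over. The 10 closest of the rest were Tmem88b (r = 0.78), Tspan11 (0.73), Stmn2 (0.69), Aqp7 (0.68), Car3 (0.67), Dnah8 (0.63), Clec5a (0.62), Emd (0.62), Crcp (0.62) and Ly6a (0.61). None is a known mast cell protease or receptor gene. Aqp7, a water and glycerol channel, averaged 0.415 CPM in hyperoxic atria, 1.59 CPM in room-air atria, 18.6 CPM in hyperoxic ventricles and 21.3 CPM in room-air ventricles. Ly6a, a surface protein of stem cells and endothelium, averaged 1.60, 2.84, 26.2 and 43.5 CPM in the same 4 groups. The 10 genes did not all share this chamber pattern. Clec5a averaged 2.36, 1.02, 1.07 and 0.603 CPM and Emd 59.3, 49.3, 47.0 and 49.1 CPM in these groups.

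The second comparison asked what hyperoxia did in the left atrium. Kit fell to 29.8 ± 11.5 CPM in hyperoxic atria, against 69.8 ± 13.3 CPM in room-air atria (SD, n = 5 each), a log2 difference of -1.23 (SE 0.20, adjusted p = 3.4e-05). The highest hyperoxic atrium, number 1 at 43.0 CPM, lay below the lowest room-air atrium, number 4 at 51.5 CPM. None of the 5 tested proteases was called in either direction. Tpsb2 averaged 2.02 ± 1.36 CPM in hyperoxic and 1.32 ± 0.946 CPM in room-air atria, with a log2 difference of 0.58 (SE 0.40, adjusted p = 0.254).

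Of the 6 genes tested in the atrium, 1 was called, Kit, where 43.9% of all genes were called (19.7% higher and 24.2% lower). The same gene was the 1 of 6 whose groups did not overlap (32.9% of all genes). The log2 differences of the others were 0.48 for Cma1 (SE 0.48, adjusted p = 0.443), 0.19 for Mcpt4 (SE 0.40, adjusted p = 0.731), 0.04 for Cpa3 (SE 0.50, adjusted p = 0.957) and -0.79 for Tpsab1 (SE 0.74, adjusted p = 0.41). Ms4a2 had a mean 1.02 times that of room-air atria in hyperoxic ones (two-sided exact permutation p = 0.992). The median of all genes was -0.063. With 4 to 119 counts of Tpsb2, Cma1, Mcpt4 or Cpa3 in a room-air atrium, and 0 to 7 of Tpsab1, moderate changes of these genes could have been missed.

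Kit was called lower in the atrium with each library left out and under each other setting that kept at least 3 libraries a group, with log2 differences between -1.61 and -0.78. The libraries tilted towards short transcripts, hyperoxic atria 2 and 4, had the lowest Kit of that group at 16.5 and 19.0 CPM. Without them and room-air ventricle 4 the log2 difference was -0.88 (adjusted p = 2.31e-06), and with the length slope as a covariate it was -0.78 (adjusted p = 9.33e-07). Without room-air atrium 3, which had the highest Tpsb2, Cpa3, Cma1 and Mcpt4 of its group, Tpsb2 and Mcpt4 were called higher in hyperoxia at 1.06 (adjusted p = 0.0375) and 0.99 (adjusted p = 0.0135).

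Markers of other cell types that make Kit were read in the atrium as well. In this response 43.9% of all genes were called, 19.7% higher and 24.2% lower. Of 8 endothelial markers 7 were called lower and 1 higher in hyperoxic atria, with a summed level of 811 to 970 CPM in hyperoxic and 1085 to 1267 CPM in room-air atria. Of 5 endocardial markers 3 were called lower and 1 higher, with sums of 375 to 482 CPM in hyperoxic and 433 to 561 CPM in room-air atria. Of 5 tested melanocyte markers none was called, with sums of 31.9 to 84.8 CPM in hyperoxic and 44.4 to 69.7 CPM in room-air atria, most of it from Mlana. The endothelial genes Cldn5, a tight junction protein, and Kdr, a VEGF receptor, had log2 differences of -1.63 (adjusted p = 1.47e-08) and -1.16 (adjusted p = 2.02e-06). No member of these 3 lists was at 0 counts in any group, and their part in the fall of Kit was not tested.

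In the left ventricle, the third comparison, Mcpt4 fell to 3.67 ± 1.001 CPM in hyperoxia, against 9.11 ± 1.43 CPM in room air (SD, n = 5 each). This was a log2 difference of -1.32 (SE 0.35, adjusted p = 0.0221), and the highest hyperoxic ventricle, number 2 at 4.84 CPM, lay below the lowest room-air ventricle, number 2 at 6.91 CPM. Tpsb2 averaged 9.20 ± 2.23 CPM in hyperoxic and 16.1 ± 3.36 CPM in room-air ventricles and its groups did not overlap either, at a log2 difference of -0.81 (SE 0.35, adjusted p = 0.127). Cma1 averaged 10.6 ± 2.92 CPM in hyperoxic and 16.4 ± 2.74 CPM in room-air ventricles, a log2 difference of -0.64 (SE 0.42, adjusted p = 0.316). Cpa3 averaged 7.90 ± 3.25 and 8.85 ± 1.85 CPM in the same groups, a log2 difference of -0.17 (SE 0.42, adjusted p = 0.812).

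Of the 6 genes tested in the ventricle, 1 was called and it was lower, where 10.9% of all genes were called (5.64% higher and 5.28% lower). For 2 of the 6, Mcpt4 and Tpsb2, the groups did not overlap (12.4% of all genes). Kit had 25.7 ± 2.15 CPM in hyperoxic and 32.5 ± 4.45 CPM in room-air ventricles, a log2 difference of -0.34 (SE 0.20, adjusted p = 0.254) that became -0.75 with the length slope as a covariate (adjusted p = 3.16e-05). Tpsab1 had a log2 difference of -0.16 (SE 0.55, adjusted p = 0.868). The mean of Ms4a2 in hyperoxic ventricles was 1.60 times that in room-air ventricles (two-sided exact permutation p = 0.683), with 20 of its 35 hyperoxic counts in number 4. The median of all genes was -0.0057.

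Within the protease reads of a ventricle the share of Mcpt4 was smaller in hyperoxia. Of the counts of Tpsb2, Cma1, Mcpt4 and Cpa3 together, Mcpt4 held 10.04% to 14.4% in hyperoxic ventricles (median 11.3%) and 16.3% to 18.8% in room-air ventricles (median 18.4%), without overlap. The share of Cma1 was 31.3% to 35.6% in hyperoxic and 30.3% to 34.4% in room-air ventricles. Cpa3 held 19.2% to 33.7% in hyperoxic and 15.1% to 20.3% in room-air ventricles. In the atria the Mcpt4 shares overlapped, at 11.5% to 24.7% in hyperoxia and 10.6% to 26.9% in room air.

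The Mcpt4 call of the ventricle held in 27 of 34 other settings. In those that lost it, of which not all are listed here, the difference stayed below 0. It was -0.95 with log2 Myl7 as a covariate in the ventricles (adjusted p = 0.0712), -1.21 with the Y-linked read share as a covariate (adjusted p = 0.238), -1.09 among Y-majority libraries (adjusted p = 0.21), -1.24 without the 3 ventricles that lay apart (adjusted p = 0.151), -1.16 without hyperoxic ventricle 5 (adjusted p = 0.0639) and -1.24 without room-air ventricle 1 (adjusted p = 0.0517). On the ventricular libraries alone Mcpt4, Tpsb2 (adjusted p = 0.0139), Cma1 (adjusted p = 0.0348) and Kit (adjusted p = 0.0455) were all called lower.

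**Figure D3:**
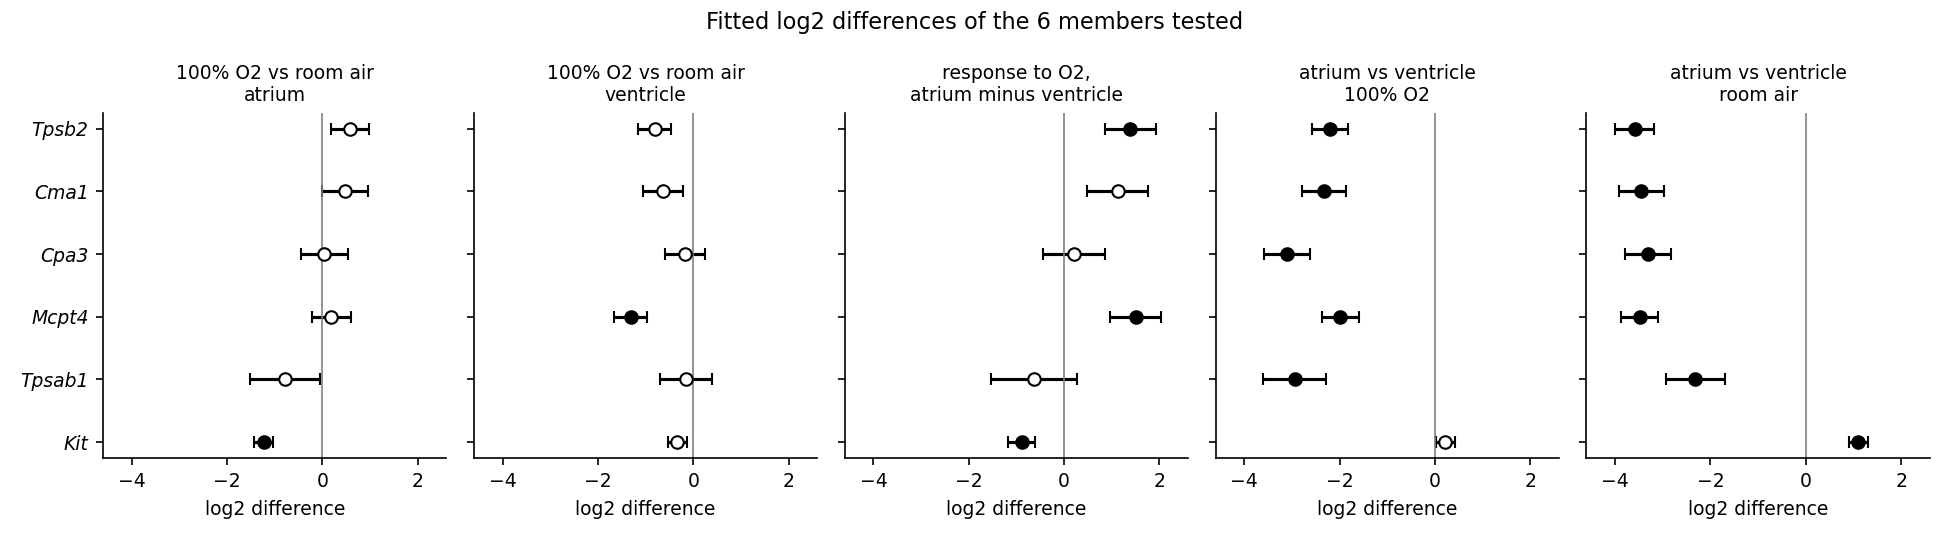
Log2 differences (x axis) of the 6 tested genes in the 5 comparisons, with whiskers of 1 SE. Filled points have an adjusted p under 0.05. The proteases lie left of 0 in both chamber comparisons (-3.59 to -1.98), Kit is the 1 filled point of the atrial response (-1.23) and Mcpt4 that of the ventricular response (-1.32). The filled points of Tpsab1 between the chambers were favoured by the expression filter and lend no support.

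The fourth comparison tested whether the response to hyperoxia differed between the chambers, as the atrial minus the ventricular log2 difference. It was 1.39 for Tpsb2 (SE 0.53, adjusted p = 0.0461) and 1.505 for Mcpt4 (SE 0.53, adjusted p = 0.032), with both genes above 0 in the atrium and below 0 in the ventricle. It was -0.89 for Kit (SE 0.28, adjusted p = 0.0169), which was further below 0 in the atrium. The values were 1.12 for Cma1 (SE 0.64, adjusted p = 0.176), 0.21 for Cpa3 (SE 0.65, adjusted p = 0.826) and -0.63 for Tpsab1 (SE 0.90, adjusted p = 0.615). Of the 6 genes tested 3 were called, 2 higher and 1 lower, where 36.5% of all genes were called (17% higher and 19.5% lower). The median of all genes was -0.064.

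These 3 calls were lost in several settings. With the length slope as a covariate the differences were 0.46 for Tpsb2 (adjusted p = 0.746), 1.33 for Mcpt4 (adjusted p = 0.243) and -0.03 for Kit (adjusted p = 0.93). The Tpsb2 call was lost when any 1 of 15 libraries was left out, with the lowest value without hyperoxic atrium 4 (0.95, adjusted p = 0.139). The Mcpt4 call was lost without hyperoxic atria 3 or 4, room-air atria 1, 2, 4 or 5, or room-air ventricle 1, at values of 1.25 to 1.43 (adjusted p of 0.0513 to 0.0772).

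The ligand of Kit and the factor Gata2 were read beside the receptor. Kitl, which encodes stem cell factor, was lower in the atrium, with 21.5 ± 3.65 CPM in hyperoxic atria and 23.7 ± 4.91 CPM in room-air atria, against 137 ± 13.9 CPM in hyperoxic ventricles and 151 ± 21.6 CPM in room-air ventricles. The log2 difference between atrium and ventricle was -2.68 in hyperoxia (adjusted p = 1.71e-12) and -2.67 in room air (adjusted p = 1.56e-12), and no atrium reached a ventricle. Gata2 was higher in the atrium, by 0.64 in hyperoxia (adjusted p = 6.14e-05) and 0.81 in room air (adjusted p = 2.66e-06) on the log2 scale. Kitl had thus the chamber pattern of the proteases, and Kit and Gata2 in room air the opposite one. Neither Kitl nor Gata2 was called for hyperoxia in either chamber.

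Of the 20 mast granule and secretory genes listed, 12 passed the filter. Between atrium and ventricle 4 were called higher and 6 lower in hyperoxia (median log2 difference -0.39) and 4 higher and 4 lower in room air (median 0.32). The lower counts include Cyp11a1 at both oxygen levels. This gene passed the expression filter through its ventricular values, so its calls were favoured by the filter and lend no support. Of all genes 48.8% were called in hyperoxia and 55% in room air, with medians of 0.014 and 0.025. Members of the list thus went both ways, and Srgn was among those called lower. Srgn, the serglycin core protein, had 7.90 ± 3.19 CPM in hyperoxic atria and 6.47 ± 0.935 CPM in room-air atria, against 16.2 ± 2.23 CPM in hyperoxic ventricles and 32.2 ± 3.603 CPM in room-air ventricles. It was lower in the atrium in hyperoxia (log2 -1.04, adjusted p = 7.8e-05) and in room air (log2 -2.31, adjusted p = 1.14e-09). Serglycin is also made by endothelial and other blood cells.

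Srgn was lower in hyperoxic ventricles by a log2 difference of -0.99 (SE 0.18, adjusted p = 0.0028), with 13.1 to 19.0 CPM in hyperoxic ventricles and 26.6 to 35.8 CPM in room-air ventricles and no overlap. Its response differed between the chambers by 1.27 (SE 0.26, adjusted p = 0.000981). In the atrium its log2 difference was 0.29 (SE 0.19, adjusted p = 0.229). The ventricular call of Srgn was lost with the Y-linked read share as a covariate (-0.62, adjusted p = 0.146), and the difference between chambers with the length slope (0.54, adjusted p = 0.12). Hdc, the enzyme that makes histamine, fell in the atrium, to 2.65 ± 0.519 CPM in hyperoxia, against 4.91 ± 0.420 CPM in room air (log2 -0.89, SE 0.18, adjusted p = 0.000436). With the Y-linked read share as a covariate the Hdc difference was -0.51 (adjusted p = 0.0847), and with the length slope added it was -0.41 (adjusted p = 0.333). The ventricular means of Hdc were 4.53 ± 1.58 CPM with hyperoxia and 3.96 ± 0.235 CPM with room air. The response of Hdc was also called different between the chambers, in the direction opposite to Srgn. The atrial minus ventricular difference of Hdc was -1.18 to -0.85 in the 20 fits with 1 library left out, and called in each. In 1 other setting the call was lost, at -0.87.

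**Figure D4:**
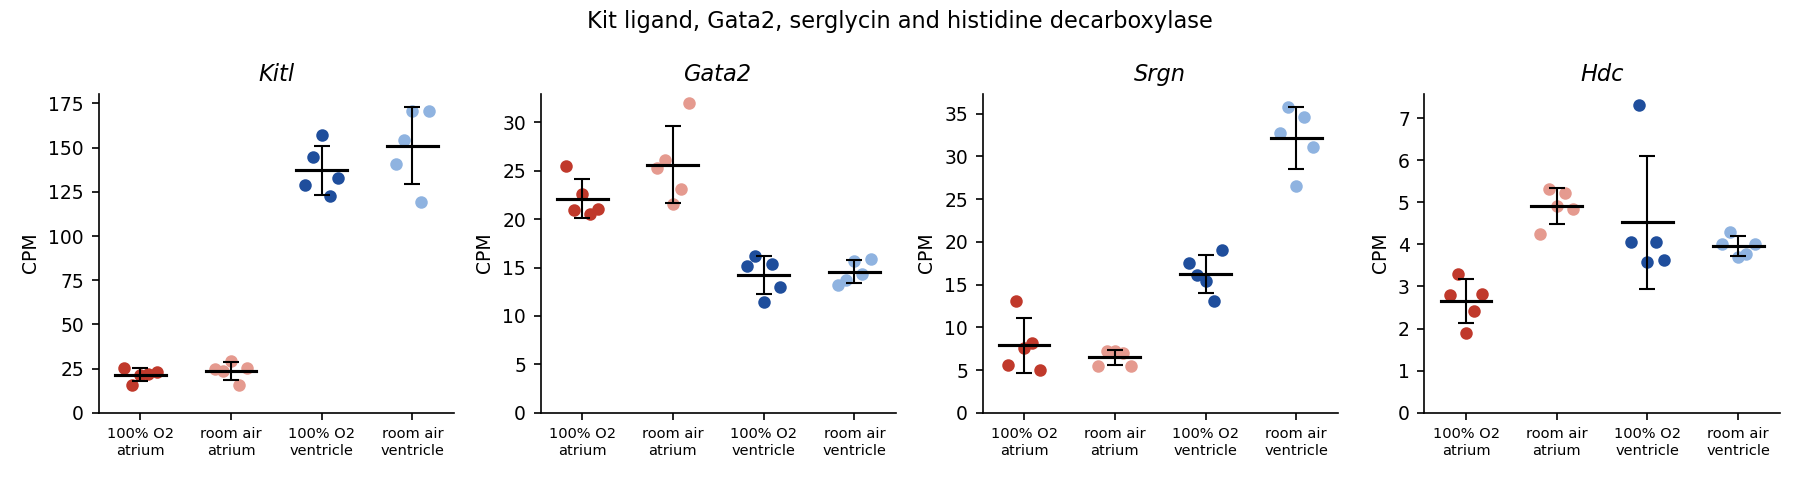
CPM (y axis, linear, a scale of its own in each panel) of Kitl, Gata2, Srgn and Hdc in the 4 groups, with 1 point per library, a bar at the mean and whiskers of 1 SD (n = 5 per group). Kitl lies between 15.5 and 29.1 CPM in the atria and between 120 and 171 CPM in the ventricles, and Srgn is highest in the room-air ventricles.

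In the atrial response of the granule list 2 members were called higher and 5 lower (median log2 -0.44), and in the ventricular response 2 higher and 1 lower (median 0.12), where 43.9% and 10.9% of all genes were called. The amine transporter gene Slc18a2 (log2 -0.97, adjusted p = 0.00043) and the monoamine oxidase gene Maob (log2 -1.44, adjusted p = 5.8e-07) were lower in hyperoxic atria. The leukotriene pathway gene Alox5ap (log2 1.08, adjusted p = 0.00071) and the prostaglandin D synthase gene Hpgds (log2 0.77, adjusted p = 0.0012) were higher there. In the ventricle Hpgds (log2 0.68, adjusted p = 0.023) and the lipoxygenase gene Alox5 (log2 0.88, adjusted p = 0.024) were higher in hyperoxia. These genes are also expressed by cells other than mast cells.

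Of the 20 receptor and signalling genes of the mast cell, 13 passed the filter. In the atrium 6 were called higher and 1 lower in hyperoxia (median log2 0.43), and in the ventricle none higher and 2 lower (median -0.08). Of all genes 43.9% were called in the atrium and 10.9% in the ventricle, with medians of -0.063 and -0.0057. Fcer1g, the gamma chain shared by the IgE receptor and the IgG receptors of macrophages, had 29.6 ± 11.5 CPM in hyperoxic atria and 10.8 ± 0.209 CPM in room-air atria (log2 1.45, SE 0.18, adjusted p = 1.14e-06). The adaptor gene Lcp2 (log2 1.28, adjusted p = 0.00024) was also higher in hyperoxic atria. Macrophages express both genes as well. Of 10 macrophage markers 7 were called higher and none lower there, with summed levels of 316 to 627 CPM in hyperoxic and 233 to 273 CPM in room-air atria and no marker at 0. Their part in the rise of Fcer1g was not tested.

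Fcer1a, the IgE-binding chain, had 2 counts in all hyperoxic atria, 0 in all room-air atria, 31 in all hyperoxic ventricles and 17 in all room-air ventricles, and did not pass the filter. Fcer1a and 2 further low genes fell outside the naming rule and were chosen after their values were seen. Mrgprb2, the receptor of basic secretagogues on mouse connective tissue mast cells, had 9 and 15 counts in hyperoxic and room-air atria, against 67 and 73 in hyperoxic and room-air ventricles. Cyp11a1, an enzyme of steroid synthesis that mast cells can also express, had 10 and 17 counts in hyperoxic and room-air atria, against 57 and 121 in hyperoxic and room-air ventricles. Both passed the filter through their ventricular values, so no test between the chambers is given.

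The 18 genes of mast cell growth, homing and transcription held 13 that passed the filter. Between atrium and ventricle 4 were called higher and 6 lower in hyperoxia, and 6 higher and 5 lower in room air, where 48.8% and 55% of all genes were called. Il33, an alarmin that acts on mast cells, was higher in the atrium in hyperoxia (log2 2.42, adjusted p = 1.5e-08) and in room air (log2 2.53, adjusted p = 8.3e-09). The cytokine gene Tslp was lower in the atrium in hyperoxia (log2 -0.49, adjusted p = 0.02) and in room air (log2 -1.24, adjusted p = 2.8e-06). Il3 and Il9 had 0 counts in all 20 libraries. In the atrial response, where 43.9% of all genes were called, 2 of the 13 were called higher and 5 lower, among them Stat5a (log2 -1.22, adjusted p = 5.5e-09) and Stat5b (log2 -0.83, adjusted p = 3.1e-07), which act downstream of Kit and many other receptors.

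Markers of other blood cells were read beside the chamber difference. The 4 B cell markers were called lower in the atrium in room air, with sums of 1.42 to 2.28 CPM in room-air atria and 5.81 to 8.01 CPM in room-air ventricles, and 3 of the 4 in hyperoxia, with sums of 1.51 to 2.48 CPM in hyperoxic atria and 4.75 to 7.81 CPM in hyperoxic ventricles. Of 6 tested neutrophil markers 3 were called lower in the atrium in each of the 2 conditions, with sums of 3.79 to 9.29 CPM in hyperoxic atria and 10.3 to 18.4 CPM in hyperoxic ventricles, and of 2.38 to 6.67 CPM in room-air atria and 6.91 to 21.1 CPM in room-air ventricles. The neutrophil genes Ly6g in room-air atria and Elane in room-air ventricles were at 0, and no B cell marker was. B cell and neutrophil markers this low can pass the expression filter through their ventricular values alone. Their calls between the chambers may thus have been favoured by the filter and lend no support. All 10 macrophage markers were higher in the atrium in both conditions. Between the chambers 55% of all genes were called in room air (28.7% higher and 26.3% lower in the atrium). In hyperoxia 48.8% of all genes were called (25.2% higher and 23.6% lower). The part of blood carried in the tissue in the protease difference was not tested.

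Of the 6 basophil markers 2 passed the filter, Il6 and the protease gene Prss34. Prss34, which lies on chromosome 17 beside the tryptase genes (25298394 to 25300165), had 12 and 18 counts in hyperoxic and room-air atria, against 45 and 96 in hyperoxic and room-air ventricles. It passed the filter through its ventricular values, so no test between the chambers is given. The basophil protease Mcpt8 had 12, 9, 14 and 16 counts in hyperoxic atria, room-air atria, hyperoxic ventricles and room-air ventricles. Summed basophil markers were 1.89 to 3.74 CPM in hyperoxic atria and 0.658 to 2.42 CPM in hyperoxic ventricles, and 1.11 to 2.03 CPM in room-air atria and 0.683 to 1.78 CPM in room-air ventricles. Il13 had 0 counts in room-air atria, Il4 in room-air ventricles, and both in hyperoxic ventricles.

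Within the chymase cluster on chromosome 14 nearly all reads belonged to Cma1 and Mcpt4. Cma1 had 368 counts in hyperoxic atria, 291 in room-air atria, 1468 in hyperoxic ventricles and 2197 in room-air ventricles, and Mcpt4 had 167, 154, 512 and 1214. Of the genes between them, Mcpt2, a chymase of mucosal mast cells, had 2, 2, 4 and 31 counts, Cma2 had 7, 2, 5 and 4, Mcpt1 had 0, 0, 0 and 3, and Mcpt9 had 0 in each group. The granzyme genes Gzmd, Gzme, Gzmf, Gzmg and Gzmn at the other end of the cluster had 0 counts in all groups. In the tryptase cluster Tpsb2 had 354, 256, 1299 and 2152 counts in the same 4 groups, Tpsab1 had 12, 22, 72 and 79, and Tpsg1, the membrane-bound tryptase, had 6, 2, 6 and 6.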

How the data were processed

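Raw counts per gene symbol were deposited for 20 libraries, made by the authors with GRCm38.p6 as the build named in the submitters' processing notes. Those notes also list STAR 2.7.6a and Salmon 1.3.0, fastp 0.20.1, and featureCounts with Subread 2.0.1. Neither the gene annotation used nor whether counting used strand is given in the sources used here. Per the labels, the library kit was stranded and each library came from an individual mouse. Whether an atrium and a ventricle of the same number came from the same mouse is not stated.

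The counts were fitted with edgeR 4.0.16 in R 4.3.3 (TMM scaling, filterByExpr, 1 coefficient per group over all 20 libraries, robust glmQLFit, glmQLFTest), and p-values were adjusted over the 16598 genes tested. The fit was also run on simulated counts in which few genes changed, which does not show its error rate on these data. Each SE was derived as the size of the log2 difference over the root of F. Ms4a2, which failed the filter, was compared by a two-sided exact permutation test on CPM. DESeq2 1.42.0, other scalings and filters, covariates, replicate blocks and leaving out libraries were tried as alternatives. No pair of replicates was a copy of the other (smallest chi-square per degree of freedom 12.3). Exon positions are from a GRCm38 annotation.

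The members, marker lists and tests were chosen with earlier results of these data known. All 7 members were named in each comparison, with the 3 members of a marker list with the smallest p, any mast cell list member with at least 1 CPM in 1 group, and the 10 genes most like the proteases. The deviations of a same-numbered atrium and ventricle from their group means had correlations of -0.06 to 0.56 in room air and 0.006 to 0.27 in hyperoxia over 11256 genes. Since they were not above 0.1 in every pair, and the labels state no shared mouse, the numbers were not taken to pair them, although a shared mouse is not excluded.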

Additional observations from a re-analysis of the deposited data

Results flagged for a closer look

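In 3 of the 28 combinations of a gene and a group, the highest library lay far from the others. The gap to the next library was more than 0.71 of the range of the group. For normally distributed values chance alone flags about 1 in 20, a rate that need not hold for CPM of genes with few counts. Cpa3 had 2.24 CPM in hyperoxic atrium 4, and the next library of that group had 0.899 CPM. Mcpt4 had 2.19 CPM in room-air atrium 3, and the next library had 0.542 CPM. Tpsab1 had 1.23 CPM in hyperoxic ventricle 4, and the next library had 0.478 CPM. Hyperoxic atrium 4 was 1 of the libraries tilted towards short transcripts, and hyperoxic ventricle 4 was 1 of those that lay apart. The part of either in these values was not tested.

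For 3 genes the response to hyperoxia differed between the chambers by the edgeR test of the difference, as atrial minus ventricular log2 difference. It was 1.39 for Tpsb2 (0.58 in the atrium and -0.81 in the ventricle), 1.505 for Mcpt4 (0.19 and -1.32) and -0.89 for Kit (-1.23 and -0.34).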

How the results depend on the processing

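In room air 6 genes were called between atrium and ventricle and in hyperoxia 5, in each leave-one-out fit as in the main one. Tpsab1 was among them at both oxygen levels, and its calls were favoured by the filter. The count for hyperoxia in the atrium was 1 and ran between 1 and 3 when 1 library was left out. That for the ventricle was 1, and 0 to 1 when 1 library was left out. It was 4 with the ventricular libraries alone, 2 with the length slope as a covariate and 2 without the 3 tilted libraries, and 0 with the Y-linked read share, with Myl7, among Y-majority libraries and without the 3 libraries that lay apart. That for the difference between the chambers was 3, and 1 to 3 when 1 library was left out. It was 0 without the filter on low counts, with the length slope, with both covariates and without the 3 libraries that lay apart, and 1 without the tilted libraries and among Y-majority ones. The cause was not tested. Y-majority libraries include 1 hyperoxic atrium, number 2, a tilted library that is assumed to vary like the other groups, and 2 hyperoxic ventricles, so values among them support nothing about the hyperoxic atrium. Over all genes, 936 were called higher and 877 lower in hyperoxic ventricles, and 102 and 98 with the Y-linked read share, 22 and 66 with Myl7, 150 and 127 among Y-majority libraries, 157 and 152 without the libraries that lay apart, and 1752 and 1553 without the tilted ones.

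The values that changed sign did so without passing the threshold. In the atrium they were -0.016 for Tpsb2, -0.19 for Cpa3 and -0.47 for Cma1 with the length slope; -0.70 for Cpa3 and -0.35 for Cma1 with both covariates; -0.31 for Cpa3 with the Y-linked read share; -0.19, -0.51, -0.75 and -0.059 for Tpsb2, Cpa3, Cma1 and Mcpt4 without the tilted libraries; and -0.65 for Cpa3 and -0.085 for Mcpt4 among Y-majority libraries. When 1 library was left out, the atrial values were -0.54 to 0.73 for Cpa3, -0.13 to 0.92 for Cma1 and -0.065 to 0.99 for Mcpt4, and the ventricular ones -0.71 to 0.051 for Tpsab1. For the difference between the chambers Cpa3 was -0.16, -0.41, -0.29 and -0.35 and Cma1 -0.33, -0.26 and -0.13, with the length slope, with both covariates and without the tilted libraries, the 4th Cpa3 value being among Y-majority libraries. Cpa3 was -0.38 to 0.90 when 1 library was left out, and Tpsab1 was 0.14 without the libraries that lay apart. Kit between the chambers in hyperoxia was -0.60 among Y-majority libraries.

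With the replicate number as a block the counts of called genes stayed at 1, 1, 3, 6 and 5 for the atrium, the ventricle, their difference, room air and hyperoxia. In that block fit Kit in the atrium was -1.27, Mcpt4 in the ventricle -1.21, and the differences between the chambers were 1.42 for Tpsb2, 1.53 for Mcpt4 and -1.02 for Kit. The labels state no pairing by number, so the block is a setting and not the design. Depth limits Ms4a2 and Tpsab1, which had at most 30 counts in any library.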
